A study of Drosophila melanogaster with 6 samples.

Results

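Messenger RNA levels of 51 V-ATPase and autophagy genes were examined in DGRC S2 cells, an embryo-derived Drosophila line that resembles macrophage-like blood cells. The arrays were of the Affymetrix Drosophila Genome 2.0 design. The members are genes whose current symbol begins with Vha followed by a digit or capital (31 genes) or with Atg followed by a digit (20 genes), taken by symbol alone from the 11981 genes read by a probe set annotated to 1 gene. They are 51 of 53 such symbols in the RefSeq gene table, and the A-subunit genes Vha68-1 and Vha68-2 were not analysed here. Untreated cells received no dsRNA, mock cells received dsRNA against β-galactosidase, and NELF-depleted cells received dsRNA against NELF-B and NELF-E, subunits of the negative elongation factor that holds RNA polymerase II paused near promoters. Both dsRNA treatments ran for 96 hours, each group had 2 arrays, and all cells were the same line grown in M3 medium with serum, with no other allele or agent. RNA comes from whole cultures, so fewer cells with an mRNA and less of it per cell cannot be told apart, and since no label names separate cultures within a group, the p-values rest on array-to-array spread that may be technical.

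The V-ATPase is a rotary proton pump that acidifies lysosomes, endosomes and secretory vesicles. Its peripheral V1 sector hydrolyses ATP and turns a central rotor, and its membrane V0 sector carries protons through a ring of proteolipid subunits. Autophagy encloses cytoplasm in a double membrane that is delivered to the acid lysosome: the Atg1 kinase complex starts the process, a phosphatidylinositol 3-kinase complex marks the membrane, lipid-handling proteins extend it, and a ubiquitin-like conjugation cascade attaches Atg8 to it. Macrophage-like cells are rich in lysosomes, and in the fly several V-ATPase subunits are encoded by more than one gene, with some paralogues known mainly from single tissues such as testis.

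No member passed the test after NELF depletion on the scale relative to other genes, though calls differ when arrays are scaled on spiked hybridization controls. By limma with an intensity-dependent prior variance, 0 of 51 members passed an adjusted p of 0.05 in NELF-depleted against mock cells, where 1.35% of all 11981 genes were called, and 0 of 51 passed against untreated cells, where 1.41% were called. Mock against untreated cells also gave 0 members, with 0% of all genes called. At an unadjusted p under 0.05 the counts of members were 5, 2 and 1 in these 3 comparisons, against 1320, 1204 and 408 of all genes. These are 9.8%, 3.92% and 1.96% of the members and 11%, 10% and 3.41% of all genes. With 1 prior variance for all genes, limma made 0 calls among all 11981 genes in each of the 3 comparisons, with 1097, 1044 and 602 genes at an unadjusted p under 0.05. NELF-depleted cells enter both of the first comparisons, and mock and untreated cells enter 2 each, so the comparisons share arrays.

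Both targets were low on the arrays labelled NELF-depleted. Of the mock level, 26.1% of NELF-B mRNA and 19.0% of Nelf-E mRNA were left, with limma adjusted p-values of 0.000284 and 7.37e-05. The blood cell character of the line was visible in 11 of 15 markers above background, srp and Pxn among them. The others, NimC1, Sr-CI, PPO1 and lz, were below it. Of 11 measured markers of other cell types (neuron, muscle, fat body, gut, germline) 1 was above it, the neuronal gene elav. Of all 11981 genes, 6532 were above background. Of the 15 blood cell markers, 10 had positive and 5 negative values against mock, with a median of 0.16 on the log2 scale. For the 11 above background the counts were 7 and 4, with a median of 0.11. Positive values were also found for 3430 of all 6532 genes above background. Both that were called, the phagocytic receptor genes drpr and eater, fell by 0.87 each (limma adjusted p = 0.003 and 0.017). The largest positive values above background were 1.23 for Hml, 0.52 for Pxn and 0.42 for ush, without a call. Hml was dim, with a mean level of 4.95. Negative values above background without a call were -0.50 for PPO2 and -0.16 for vkg. The summed normalized intensity of the 11 blood cell markers was 9071 and 11322 in untreated, 9261 and 9783 in mock and 10848 and 10957 in NELF-depleted cells, and no marker was listed at 0. The part of these markers in the members' values was not tested. Median deposited intensity per array ran from 11.7 to 14.2.

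Most V-ATPase subunits were read above background by 1 gene. For 5 of these (D, F, c, c'' and d) the other measured paralogues had means over all arrays below background, and for the rest it was the only gene measured. A normalized log2 level of 3.88, the 95th percentile of the tag control probe sets, served as background. The mean over all 6 arrays was above it for 16 of 31 V-ATPase genes and 19 of 20 Atg genes, and for 6532 of all 11981 genes. A gene called below background by this mean can still be above it in a group. For the 35 members above it the mean levels spanned 4.05 to 12.96, and for the 16 below it 0.93 to 3.82. Of 13 subunits of V1 and V0 with a measured gene, 10 had exactly 1 gene above background and 2 had 2 genes. Among 7 subunits with several measured genes, 5 had exactly 1 above background.

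**Figure D1:**
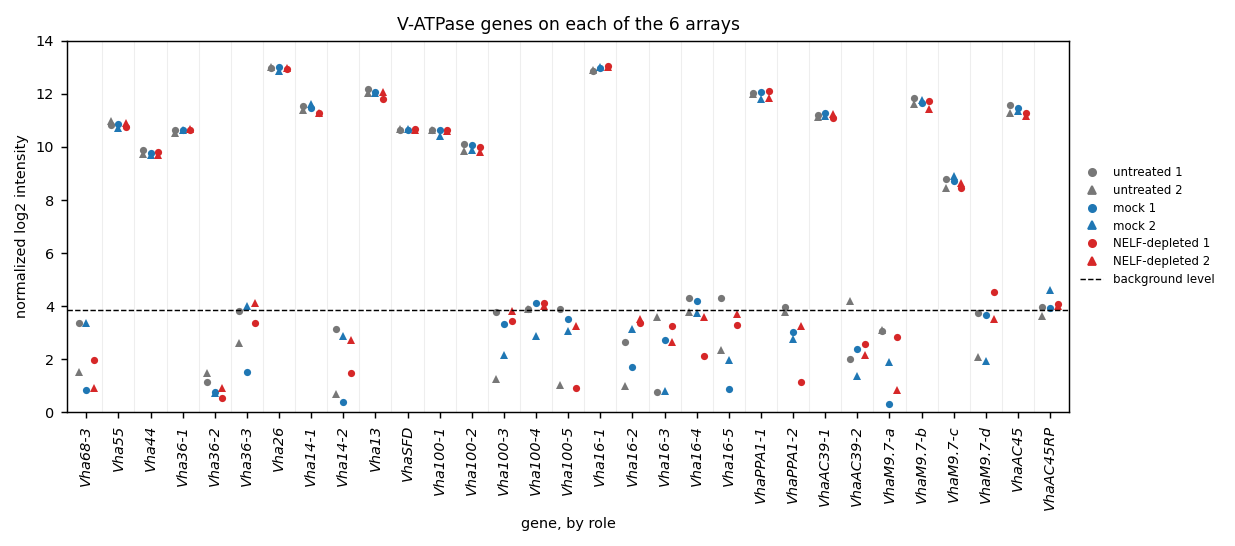
Normalized log2 intensity (vertical axis) of the 31 measured V-ATPase genes (horizontal axis, ordered by sector and subunit) on each of the 6 arrays; colours are groups, shapes are replicates, and the dashed line is the background level of 3.88. Expressed genes sit between 8.44 and 13.03 apart from VhaAC45RP, and their 6 points nearly coincide, while the paralogues at background scatter widely.

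In the V1 sector, which binds and splits ATP, every subunit with a measured gene except A was read above background by 1 gene. Subunit D of the rotor was read by Vha36-1, at log2 levels from 10.54 to 10.66 over the 6 arrays, while its paralogues Vha36-2 and Vha36-3 had means below background. Subunit F, also of the rotor, was read by Vha14-1 and not by Vha14-2, whose deposited intensities were 8.51 and 0.872 in untreated, 0.520 and 6.23 in mock, and 1.71 and 5.33 in NELF-depleted cells. That spread within each group is as wide as the range between groups. The A-subunit gene Vha68-3 was likewise at background.

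Among the remaining V1 genes, Vha55 of the nucleotide-binding subunit B lay between 10.70 and 10.98, and Vha44 of subunit C between 9.68 and 9.88. The stalk genes Vha26 (subunit E) and Vha13 (subunit G) lay between 12.85 and 13.00 and between 11.82 and 12.19. VhaSFD, which encodes the regulatory subunit H, had levels of 10.63 and 10.67 in untreated, 10.64 and 10.66 in mock and 10.67 and 10.63 in NELF-depleted cells. Its 3 groups overlapped fully, and its log2 change against mock was -0.002 (SE 0.0862).

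In the V0 sector, the a subunit, which forms the proton path beside the ring, was read by Vha100-1 (10.42 to 10.62 over the arrays) and Vha100-2 (9.81 to 10.11), with Vha100-3, Vha100-4 and Vha100-5 below background. The proteolipid c of the ring was read by Vha16-1 (12.85 to 13.03), while Vha16-2, Vha16-3, Vha16-4 and Vha16-5 had means over all arrays below background. For Vha16-4 the group means were 4.04 in untreated and 3.96 in mock cells, just above background, and 2.87 in NELF-depleted cells. This difference did not pass (limma adjusted p = 0.653 against mock and 0.676 against untreated cells). Vha16-1 was the only member with more than 1 probe set of its own, and the dimmer of its probe sets gave a log2 change against mock of 0.14, where the brighter gave 0.03. The c'' proteolipid gene VhaPPA1-1 lay between 11.82 and 12.12 and VhaAC39-1 of subunit d between 11.09 and 11.29, each with a paralogue, VhaPPA1-2 and VhaAC39-2, below background. The small subunit e was read by VhaM9.7-b and VhaM9.7-c, with VhaM9.7-a and VhaM9.7-d below it.

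In the RefSeq gene order Vha100-4, whose mean was just below background, is next to Vha100-2, which was above it. The adjacent pair Vha16-2 and Vha16-3 was below background for both genes. In that gene order, 17 of 51 members, 14 of them above background, overlap another protein-coding gene, and 7 members were read by probe sets whose suffix marks probes shared between transcripts of different genes, so part of their signal may belong to other transcripts. These were Vha100-1, Vha100-2, Vha26, Vha44, Vha55, VhaAC45 and Atg18a.

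After NELF depletion the values of the V1 and V0 genes above background were small on the scale relative to other genes. The 7 V1 genes above background had log2 changes against mock from -0.26 to 0.05, and the lowest and highest ends of their 95% intervals were -0.48 and 0.28. For the 7 V0 genes above background the changes ran from -0.26 to 0.10 and the interval ends were -0.57 and 0.31. These intervals are not adjusted for the number of genes. The median change of the 16 V-ATPase genes above background was -0.03, against 0.01 for all 6532 genes above background, and for all 31 it was 0.02 against 0.01 for all genes.

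Among V1 genes above background the lowest value against mock was in Vha14-1, the rotor subunit F gene. Its log2 levels were 11.53 and 11.40 in untreated, 11.46 and 11.63 in mock and 11.29 and 11.27 in NELF-depleted cells. Both NELF-depleted arrays lay below all 4 control arrays, and the log2 change was -0.26 (SE 0.0993, limma adjusted p = 0.344) against mock and -0.18 (SE 0.0993, adjusted p = 0.612) against untreated cells. Vha13, the stalk subunit G gene, had the next smallest p against mock among V1 genes above background. Its levels were 12.19 and 12.04 in untreated, 12.08 and 12.03 in mock and 11.82 and 12.08 in NELF-depleted cells, so that only NELF-depleted replicate 1 was lower and the groups overlapped (log2 change -0.11, SE 0.115). Without that array the change was 0.03.

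Among V0 genes above background the smallest p-values against mock fell on the e-subunit genes VhaM9.7-c and VhaM9.7-b. VhaM9.7-c had log2 levels of 8.80 and 8.45 in untreated, 8.70 and 8.89 in mock and 8.44 and 8.63 in NELF-depleted cells. NELF-depleted arrays were below both mock arrays but overlapped the untreated ones, with log2 changes of -0.26 (SE 0.14, limma adjusted p = 0.548) against mock and -0.09 against untreated cells. VhaM9.7-b had levels of 11.86 and 11.60, 11.65 and 11.78, and 11.71 and 11.43 in the same order of groups, which overlapped (log2 change against mock -0.15, SE 0.126). Leaving out 1 array moved the change of VhaM9.7-b to between -0.28 and -0.002, the ends being without NELF-depleted replicates 1 and 2. That of VhaM9.7-c came to -0.17 without either mock replicate 2 or NELF-depleted replicate 1.

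The accessory subunit gene VhaAC45, whose product is thought to aid assembly and targeting of the pump, had log2 levels of 11.56 and 11.29 in untreated, 11.48 and 11.35 in mock and 11.29 and 11.18 in NELF-depleted cells. Both NELF-depleted arrays were the lowest of the 6, by a small margin, and the change was -0.18 against mock (SE 0.112, limma adjusted p = 0.633) and -0.19 against untreated cells. Its relative VhaAC45RP was barely above background, with deposited intensities of 16.1 and 12.7, 15.9 and 21.2, and 14.8 and 13.9 in untreated, mock and NELF-depleted cells. The 95% interval of its change against mock, from -1.48 to 1.01, is much wider than those of the other V-ATPase genes above background. Its change was -0.57 without mock replicate 1 and 0.10 without mock replicate 2.

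**Figure D2:**
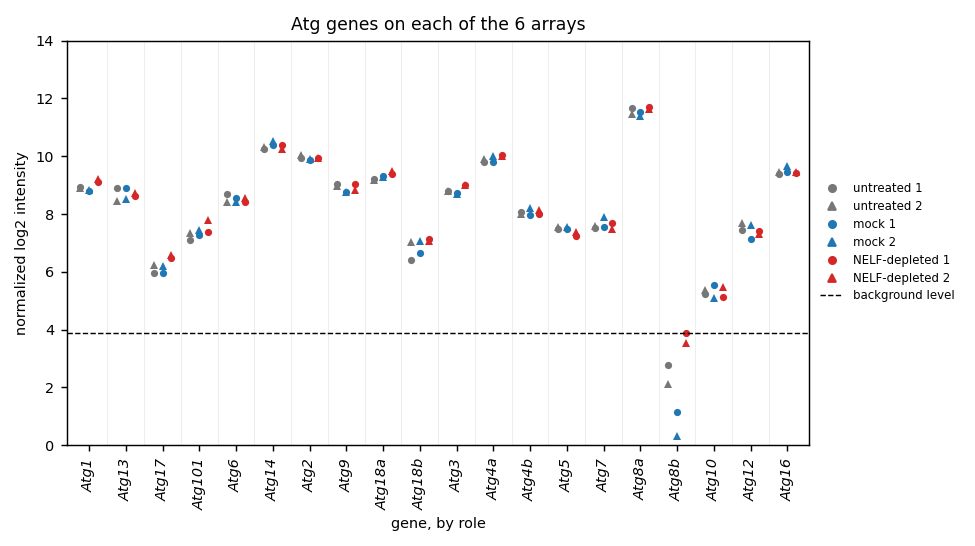
Normalized log2 intensity (vertical axis) of the 20 Atg genes (horizontal axis, ordered by step of the pathway) on each of the 6 arrays, with colours for groups, shapes for replicates and a dashed line at the background level of 3.88. All but Atg8b have means above it, and the NELF-depleted points of Atg1, Atg3 and Atg17 lie above all 4 control points.

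Among autophagy genes, members of every step were expressed, and the Atg1 kinase complex held both of the largest positive values against mock among Atg genes above background, neither of which passed the test. Atg1, the kinase itself, had log2 levels of 8.94 and 8.9 in untreated, 8.80 and 8.82 in mock and 9.10 and 9.20 in NELF-depleted cells. Both NELF-depleted arrays exceeded all control arrays. The log2 change was 0.34 (SE 0.0983, 95% interval 0.125 to 0.561) against mock and 0.23 (SE 0.0983) against untreated cells, with limma adjusted p-values of 0.182 and 0.449. Atg17, the scaffold of the complex, had levels of 5.96 and 6.25, 5.96 and 6.19, and 6.49 and 6.58 in untreated, mock and NELF-depleted cells, and its change against mock was 0.46 (SE 0.239, adjusted p = 0.542). Both NELF-depleted arrays were again above all controls. The other partners, Atg101 (0.22, SE 0.183) and Atg13 (-0.04, SE 0.166), overlapped between NELF-depleted and mock cells. Against untreated cells Atg101 did not overlap, with a change of 0.36 (SE 0.183, adjusted p = 0.574), and Atg13 was at -0.01.

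The phosphatidylinositol 3-kinase complex was read by Atg6, the fly Beclin, and Atg14, which directs the kinase to autophagic membranes. Atg14 had log2 levels of 10.24 and 10.31 in untreated, 10.40 and 10.53 in mock and 10.41 and 10.25 in NELF-depleted cells, a change of -0.13 (SE 0.0981) against mock and 0.05 against untreated cells. Against mock it was -0.21 without NELF-depleted replicate 1, -0.05 without replicate 2 of that group and -0.07 without mock replicate 2. Atg6 had levels of 8.68 and 8.42, 8.56 and 8.43, and 8.42 and 8.54, a change of -0.02 (SE 0.125) against mock whose sign differed with the array left out. For both genes the NELF-depleted arrays fell within the range of the 4 controls.

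All 4 genes that supply or extend the membrane had positive values against mock, from 0.05 to 0.25, and none passed. Against untreated cells 2 were positive and 2, Atg2 (-0.05) and Atg9, negative. Atg9, a lipid-scrambling membrane protein, had log2 levels of 9.03 and 8.96 in untreated, 8.77 and 8.75 in mock and 9.02 and 8.84 in NELF-depleted cells. Here the mock arrays were the low ones: the change was 0.17 (SE 0.105) against mock and -0.06 against untreated cells, while mock against untreated was -0.23 (SE 0.105), which did not pass. The change against mock was 0.08 without NELF-depleted replicate 1 and 0.26 without replicate 2 of that group. Atg18a, which binds the phosphorylated lipid, had levels of 9.21 and 9.17, 9.30 and 9.30, and 9.40 and 9.48. Both NELF-depleted arrays were above all controls, by 0.14 (SE 0.0931) over mock and 0.25 (SE 0.0931, adjusted p = 0.359) over untreated cells on the log2 scale. Atg18b (0.25, SE 0.242) and the lipid-transfer gene Atg2 (0.05, SE 0.0891) completed this step.

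In the conjugation cascade the smallest p-values above background belonged to Atg3 and Atg8a. Atg3, the E2-like enzyme that passes Atg8 to the lipid, had log2 levels of 8.81 and 8.79 in untreated, 8.72 and 8.70 in mock and 9.02 and 8.99 in NELF-depleted cells. Replicates differed far less than groups, and the change was 0.30 (SE 0.0976, limma adjusted p = 0.261) against mock and 0.20 (SE 0.0976, adjusted p = 0.537) against untreated cells. Atg8a, the main fly Atg8 gene, had levels of 11.67 and 11.46, 11.55 and 11.40, and 11.72 and 11.65, a change of 0.21 (SE 0.107) against mock, with the higher untreated array inside the NELF-depleted range. Without mock replicate 2 it was 0.14.

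The remaining enzymes of the cascade went either way. The Atg8 protease genes Atg4a and Atg4b had changes against mock of 0.12 (SE 0.0999) and -0.02 (SE 0.129), the E1-like gene Atg7 one of -0.16 (SE 0.159) and the E2-like gene Atg10 one of -0.01 (SE 0.356). Atg12 was at -0.01 (SE 0.184), its acceptor Atg5 at -0.19 (SE 0.144) and their partner Atg16 at -0.10 (SE 0.0993). Atg5 was below all 4 controls on both NELF-depleted arrays, at 7.24 and 7.39 against 7.48 to 7.55. Atg8b, known mainly from the male germline, had deposited intensities of 6.51 and 3.95 in untreated, 1.53 and 0.441 in mock and 12.7 and 9.79 in NELF-depleted cells. Its mean is below background in all groups, so no fold is given (limma adjusted p = 0.127 against mock, the smallest among the 51 members).

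**Figure D3:**
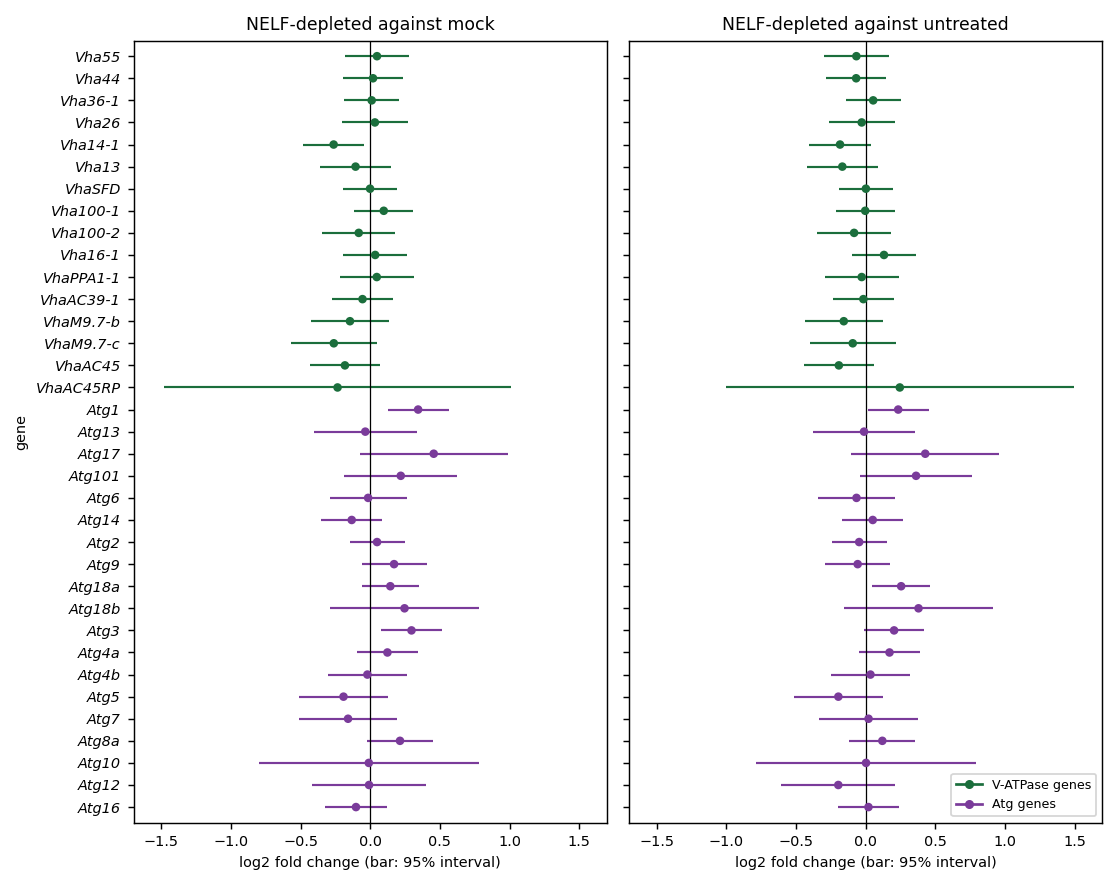
Log2 fold change (horizontal axis) of the 35 members above background (vertical axis) in NELF-depleted against mock cells (left) and against untreated cells (right); points are limma estimates, bars their 95% intervals, green marks V-ATPase genes and purple Atg genes. Intervals exclude 0 for Vha14-1, Atg1 and Atg3 on the left and for Atg1 and Atg18a on the right, before adjustment. These are 8.57% and 5.71% of the 35 members, against 14.4% and 13.3% of all 6532 genes above background. No member passes the adjusted threshold.

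Counts of separated arrays describe the same values. Both NELF-depleted arrays lay above both mock arrays for 9 of 19 Atg genes above background and below them for 1, Atg5, whereas for 16 V-ATPase genes these counts were 0 and 3 (Vha14-1, VhaAC45 and VhaM9.7-c). Of all 6532 genes above background, 22.6% lay above and 21.1% below, and 1.35% of all genes were called in this comparison. Above all 4 control arrays were 6 Atg genes (Atg1, Atg3, Atg4a, Atg17, Atg18a and Atg18b) and no V-ATPase gene, or 31.6% and 0%, against 14.3% of all genes above background. Below all 4 were Atg5, Vha14-1 and VhaAC45, or 5.26% of Atg and 12.5% of V-ATPase genes, against 13.9% of all genes above background. No test compares the lists, and the median change against mock of the 19 Atg genes was 0.05, close to the 0.01 of all genes above background.

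On the scale relative to other genes, the members' levels in mock cells were close to those in untreated cells. Changes of the 16 V-ATPase genes above background ran from -0.11 to 0.48, the highest being VhaAC45RP, with a median of -0.01, and those of the 19 Atg genes from -0.23 to 0.18, with a median of 0.01. Replicates of members above background differed by a median of 0.118, 0.154 and 0.101 on the log2 scale in untreated, mock and NELF-depleted cells. With intensities as deposited, the medians for mock against untreated cells were -0.30 (V-ATPase) and -0.34 (Atg), against -0.34 for all genes above background. Scaled on hybridization controls they were 0.07 and 0.03, against 0.04.

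Direction and calls depend on how arrays are scaled. The values above come from quantile normalization, which makes all arrays share a distribution and so shows members relative to other genes. With arrays scaled on 9 spiked hybridization control probe sets, 25.1% of all genes and 20 of 51 members passed against mock cells, and 19.6% and 14 against untreated cells. Among genes above background the shares were 54.3% of 35 members and 43.8% of all 6532 genes against mock cells. Against untreated cells they were 40% and 34.9%. In the first comparison 19 of the 20 were lower. The other was Atg8b, which was higher and has a mean below background. In the second comparison all 14 were lower. On that scale all 16 V-ATPase and 19 Atg genes above background had negative values against mock, Atg1 (-0.08), Atg3 (-0.13) and Atg17 (-0.004) included, with medians of -0.41 and -0.36 against -0.41 for all genes above background. Vha14-1 (-0.63), VhaM9.7-c (-0.70) and VhaAC45 (-0.57) were among the members called on it.

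Mock replicate 2 had the lowest hybridization control signal, 0.491 below the mean of the arrays on the log2 scale. Without it 6 of 51 members and 9.66% of all genes were called against mock on that scale, and the medians were -0.41 for V-ATPase and -0.28 for Atg genes against -0.41 for all genes above background. With intensities as deposited or arrays centred on their medians, limma called 0 members in any comparison. Of all genes 0.451% were called against mock under both, 1.57% and 1.05% against untreated cells, and 0% in mock against untreated cells, so few calls were made among genes of any kind. Per the labels each array took the same mass of labelled cRNA, so mRNA per cell was not measured under any of these scalings.

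**Figure D4:**
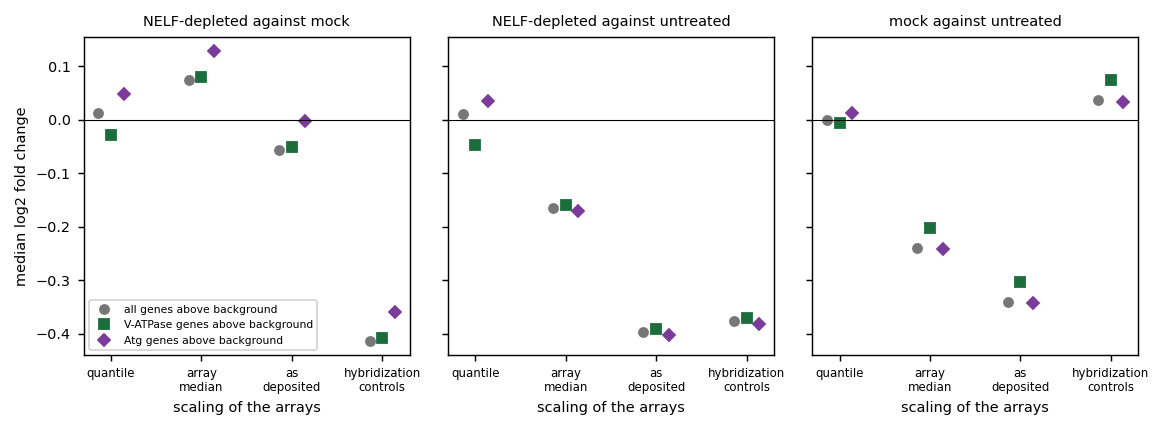
Median log2 fold change (vertical axis) of all genes, V-ATPase genes and Atg genes above background under 4 scalings of the arrays (horizontal axis), 1 panel for each comparison. The medians of the member lists move with the median of all genes, for example to -0.41, -0.36 and -0.41 (V-ATPase, Atg, all) for NELF-depleted against mock cells scaled on hybridization controls.

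Genes that work with these members but carry other symbols were mostly without a call as well. Of 57 such genes listed, 50 were measured, all above background, and 1, or 2%, was called against mock, close to the 2.48% of all genes above background. This was ClC-a, a plasma membrane chloride channel gene on the list of V-ATPase assembly and acidification, which fell by 1.21 (SE 0.153, limma adjusted p = 0.00278). Its log2 levels were 7.99 and 8.14 in untreated, 8.18 and 7.99 in mock and 7.03 and 6.74 in NELF-depleted cells, with no overlap. Against untreated cells it fell by 1.18 (SE 0.153, adjusted p = 0.0029). With the median over its 2 probe sets the change against mock was -0.87 (limma adjusted p = 0.332). The call against mock was also lost on median-centred arrays (adjusted p = 0.0608), with 1 prior variance (0.192) and without mock replicate 1 (0.0552). The call against untreated cells was lost with the median over probe sets (0.459), with 1 prior variance (0.214) and without untreated replicate 2 (0.0594). The chloride transporter genes of endosomes and lysosomes, ClC-b and ClC-c, had changes against mock of 0.22 (SE 0.0991) and 0.06 (SE 0.113) without a call.

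The next smallest p-values on this wider list were those of BHD, Rbcn-3B and Ccz1. BHD, the folliculin gene, which acts on Rag GTPases at the lysosome, had log2 levels of 6.49 and 6.83 in untreated, 6.70 and 7.11 in mock and 7.46 and 7.42 in NELF-depleted cells, a change of 0.54 (SE 0.202, limma adjusted p = 0.345) against mock, which was 0.33 without mock replicate 1. Rbcn-3B, part of the rabconnectin complex that promotes pump assembly, had levels of 9.35 and 9.16, 9.46 and 9.16, and 9.15 and 8.43, a change of -0.52 (SE 0.2, adjusted p = 0.363). It was -0.15 without NELF-depleted replicate 2, the low array, and -0.87 without replicate 1 of that group. Ccz1, which with Mon1 activates Rab7 on late endosomes, had levels of 6.75 and 6.92, 6.84 and 7.13, and 7.43 and 7.42, a change of 0.44 (SE 0.175, adjusted p = 0.381). Against untreated cells the changes were 0.78 for BHD, -0.46 for Rbcn-3B and 0.59 for Ccz1. Their limma adjusted p-values in that comparison were 0.131, 0.472 and 0.212, so none passed.

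By list, the median change against mock was 0.01 for 7 V-ATPase assembly and acidification genes, 0.02 for 12 autophagy genes without an Atg symbol, 0.11 for 12 endolysosomal fusion genes and 0.05 for 19 genes of TORC1 control at the lysosome. Selective autophagy was represented by ref(2)P, the fly p62 cargo receptor, with a change of 0.09. ATP6AP2, formerly VhaM8.9 and an accessory pump subunit, was at -0.13, and Mitf, the transcription factor known in the fly for control of V-ATPase and lysosomal genes, was dim, with levels of 4.48 and 4.62, 4.11 and 3.82, and 4.66 and 4.25 (change 0.49, SE 0.503).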

How the data were processed

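The authors deposited a linear intensity for each of 18952 probe sets on 6 arrays, made with GeneChip Operating Software 1.2.0.037 or Command Console 1.1 and Rosetta Resolver 6.0, per the labels' design text; how probes were summarised and scaled is not given in the sources used here. Here log2(value + 0.819), an offset set at their 5th percentile, was quantile normalized, and 183 control probe sets were left out. Array medians had differed by up to 0.257 on the log2 scale. The brightest probe set stood for a gene. Tests used limma 3.58.1 in R 4.3.3 (3 group means, 6 arrays, 3 residual degrees of freedom, eBayes with trend, Benjamini-Hochberg over 11981 genes, two-sided, threshold 0.05), and scripts were tested on simulated data. A fold change on this scale understates changes of dim genes. The members, gene lists and the intensity-dependent prior were chosen with earlier results of these data known. Named genes are all members, with values on every array for the 2 of smallest p per role above background, any called, and 4 pathway genes of smallest p; Vha14-2, VhaSFD, Atg5, Atg8b, drpr, eater, srp, Pxn, Hml, ush, ClC-b, ClC-c, ref(2)P, ATP6AP2 and Mitf were added after their values were seen. The group means of Vha100-4, Vha16-4 and VhaM9.7-d and the values of PPO2 and vkg were also added after they were seen. RefSeq Release 6 served for symbols and gene order only. No sequences are shown, since no sequence tables were used here. The number of arrays limits precision.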

Additional observations from a re-analysis of the deposited data

How the results depend on the processing

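No member was called in any comparison under the deposited or median-centred scalings, both other offsets, the filter on dim genes, the median over probe sets, the single prior, the replicate block, both controls together, or without any 1 array. The exception was scaling on hybridization controls, with 20 members against mock, 14 against untreated and, in a setting chosen after seeing the data, 6 against mock without mock replicate 2. Of all genes, 162 were called against mock. This became 54 as deposited, 54 median-centred, 3004 on hybridization controls (1157 without mock replicate 2), 74 with an offset of 50 units, 247 above the median gene, 0 with a single prior, 271 with the replicate block, 247 against both controls and 69 to 126 without 1 array. Against untreated cells 169 became 2350 on hybridization controls, 89 with the offset of 50, 0 with a single prior, 270 with the replicate block and 70 to 146 without 1 array.

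Correlations of replicate deviations between groups ran from 0.145 to 0.158 above background and up to 0.0228 over all genes; with 2 replicate numbers and no label that ties them, they were not taken to pair samples, and the replicate block called 0 members. Median changes over all measured members against mock were 0.02 (V-ATPase) and 0.09 (Atg), and on hybridization controls -0.387 and -0.328 (-0.382 and -0.272 without mock replicate 2). Against untreated cells they were -0.03 and 0.04, became -0.382 and -0.369 as deposited and -0.362 and -0.349 on hybridization controls, and -0.150 and -0.137 median-centred. Mock against untreated gave -0.337 and -0.356 as deposited and -0.236 and -0.254 median-centred. Among named genes without a call against mock, signs turned on hybridization controls for Atg1 (-0.0848), Atg17 (-0.00371), Atg18a (-0.273), Atg3 (-0.135), Atg8a (-0.158) and Atg9 (-0.253); without mock replicate 2 they were -0.0805 for Atg1, -0.276 for Atg18a, -0.155 for Atg3, -0.217 for Atg8a and -0.268 for Atg9, while Atg17 was 0.108. Median-centred, Atg6 was 0.0406 and Vha13 0.0676, and VhaAC45RP was 0.00481 against both controls. Without 1 array, Atg6 ran from -0.0810 to 0.0498, Vha13 from -0.234 to 0.0276 and VhaAC45RP from -0.569 to 0.102. The cause of these shifts was not tested.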
